A study of Mus musculus with 670 samples.

Results

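Cnmd encodes chondromodulin, a glycoprotein that cartilage cells lay down in their matrix and that keeps blood vessels out of it. Cells that held its transcript were compared here between newborn mice at postnatal day 3 and young adult mice at 2 months. The members were chosen by their Cnmd level: a cell counted as Cnmd-positive with at least 10 CPM of Cnmd (a gene's reads scaled to a fixed total of gene reads), at least 1000 detected genes, at least 50000 gene reads and under 20% of reads from mitochondrially encoded genes. Of the 670 wells of the whole series, this gave 42 cells at postnatal day 3 and 7, 50 and 49 cells on 3 plates of 2 months. The wells hold skeletal stem cells that were freed from mouse long bones, purified by flow cytometry without culture or treatment and sequenced 1 per well with SmartSeq2, a method that reads full-length transcripts. The labels give every well as male and name no strain, genotype or animal. Postnatal day 3 is plate 9 (batch 3, 95 wells), and 2 months is plates 1, 3 and 4 (batches 4, 5 and 1, with 96, 96 and 95 wells). Wells of the other age in the series, 24 months, were not used.

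Cartilage cells of a growing bone divide, pile up matrix of type II collagen and aggrecan, enlarge and are replaced by bone, while those that stay at the joint surface keep the cartilage for life. Sox9, with its partners Sox5 and Sox6, switches on the matrix genes, and Runx2 and its targets mark enlarged cells near bone. Imprinted genes, read from 1 parental copy only, include many that set growth before and shortly after birth. Immediate early genes are transcribed within minutes of a stimulus, and clock genes follow a daily rhythm.

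Cnmd-positive cells made up 42 of 68 passing cells at postnatal day 3 (61.8%, exact 95% binomial interval 49.2% to 73.3%) and 68.8% (60.9% to 76.04%) at 2 months, with 7 of 15, 50 of 70 and 49 of 69 on plates 1, 3 and 4. Because Cnmd chose the cells, its level is a description: the lowest, median and highest cell held 614, 5354 and 15956 CPM at postnatal day 3 and 11.5, 5128 and 21019 CPM at 2 months. The limit of 10 CPM lay in a nearly empty range. No postnatal day 3 cell lay between 0 and 614 CPM. At 2 months, 4 members lay between 11.5 and 39.2 CPM, and 6 cells with Cnmd reads stayed outside, the highest at 8.22 CPM. Of 8 chondrocyte markers, which include Cnmd itself, all were read at both ages. They summed to 118474 CPM at postnatal day 3 and to 84191 to 102058 CPM on the 2-month plates, against 1934 and 18744 CPM in the Cnmd-negative cells of the same plates. Most of the sum in Cnmd-positive cells was Col2a1. Of the 8 markers, 2 had a log2 fold above 0 and 6 below, with a median of -0.56, and none was called higher. The collagen IX gene Col9a1 was read in 41 newborn (97.6%) and 94 adult cells (88.7%), and the matrilin gene Matn3 in 27 newborn (64.3%) and 72 adult cells (67.9%).

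Age and plate cannot be told apart for the newborn cells, since no batch holds both ages and postnatal day 3 has 1 plate. No animal is named, so each age is 1 sample and no test across samples was possible; a gene is called higher or lower here by size alone. Reads of the Cnmd-positive cells were summed per plate and scaled to CPM, and the 2-month level is the mean of the 3 plates. A call needed at least 10 CPM at the higher age, a 2-fold difference of levels after 1 CPM was added, and a newborn plate outside the range of all 3 adult plates. Of 9302 genes with at least 10 CPM, 2642 (28.4%) were called higher at postnatal day 3 and 893 (9.6%) lower. Plates of the same age differed as well: the median absolute log2 difference over these genes was 0.95 between plates 3 and 4, against 1.13 and 1.12 between plate 9 and each of them. Plate 1, with 7 cells, was 2.65 to 3.51 from every other plate, and 1909 of the genes called higher had no read on it. Without plate 1, 2390 genes (24.9%) were higher and 1991 (20.8%) lower. Among genes read in at least 20% of the cells of the higher age, a limit added after the data were seen, 24.5% of 3522 were higher and 11.6% lower. A list's counts are read below against 28.4% and 9.6%, and its median log2 fold, over genes with at least 5 CPM, against the median of 0.15 over all 10782 such genes. The lists were chosen with earlier results of these data known, so their counts and ranks describe the cells and test nothing.

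Depth and gene number differed between plates. Median gene reads per Cnmd-positive cell were 1100501 at postnatal day 3 and 2052015, 835640 and 644575 on plates 1, 3 and 4, within 67662 to 3486041 over all cells. With cells thinned to an equal 50000 reads, 1741 genes were read in the median cell at postnatal day 3 and 1407, 1394.5 and 1364 on plates 1, 3 and 4. Mitochondrially encoded genes gave 0.325% of reads at postnatal day 3 and 1.33%, 0.851% and 1.06% on the 2-month plates. The part these differences have in the excess of higher calls was not tested. Xist reads went against the label of male: 19 of the 42 newborn Cnmd-positive cells (45.2%, 29.8% to 61.3%) held reads of Xist, the RNA that silences an X chromosome in female cells, against none at 2 months. Of those 19, 1 also held a read of a Y-linked gene. Y-linked genes were read in 8 newborn and 55 adult Cnmd-positive cells, and 16 newborn and 51 adult ones held neither kind of read. Newborn cells without an Xist read are thus not all shown to be male. Over the 23 newborn cells without an Xist read, 2599 genes (28.7%) were higher and 1179 (13%) lower, and list medians for these cells are given below where they are named.

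Sequences are shown for clock and heat shock genes, because their promoters can carry well-known motifs. Of those shown, Per1, Bhlhe41 and Hspa1a were called lower in newborn cells, Cry1 was called higher and Hspa1b was not called. Only windows with the motif are shown, and Per1 has 2 windows, of which 1 is given. Each sequence is the 200 bases just before a RefSeq start site (GRCm38.p6, 5′ to 3′ on the gene's strand). Capitals mark the motif: the E-box CACGTG, through which the clock factors act on Per and Cry genes, or the half-site pair GAANNTTC of the heat shock element, which heat shock factor binds. The Per1 window is chr11:69098749-69098948 (plus strand), Bhlhe41 is chr6:145865421-145865620, Cry1 is chr10:85185055-85185254, Hspa1a is chr17:34972157-34972356 and Hspa1b is chr17:34959239-34959438 (minus strand for these 4).
Per1: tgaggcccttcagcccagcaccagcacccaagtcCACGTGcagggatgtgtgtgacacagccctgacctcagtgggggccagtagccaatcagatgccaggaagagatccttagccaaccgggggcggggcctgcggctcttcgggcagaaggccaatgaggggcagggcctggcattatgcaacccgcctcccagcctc
Bhlhe41: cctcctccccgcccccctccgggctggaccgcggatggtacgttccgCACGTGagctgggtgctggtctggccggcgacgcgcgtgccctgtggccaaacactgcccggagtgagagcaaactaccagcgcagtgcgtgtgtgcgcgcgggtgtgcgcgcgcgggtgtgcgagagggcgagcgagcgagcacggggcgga
Cry1: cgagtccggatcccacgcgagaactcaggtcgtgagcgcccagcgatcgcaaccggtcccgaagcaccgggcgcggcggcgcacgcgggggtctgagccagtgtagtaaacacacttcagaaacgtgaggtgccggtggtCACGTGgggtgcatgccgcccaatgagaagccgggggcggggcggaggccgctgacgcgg
Hspa1a: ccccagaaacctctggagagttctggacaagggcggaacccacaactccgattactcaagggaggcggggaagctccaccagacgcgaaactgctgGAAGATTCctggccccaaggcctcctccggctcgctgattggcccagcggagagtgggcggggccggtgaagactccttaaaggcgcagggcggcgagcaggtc
Hspa1b: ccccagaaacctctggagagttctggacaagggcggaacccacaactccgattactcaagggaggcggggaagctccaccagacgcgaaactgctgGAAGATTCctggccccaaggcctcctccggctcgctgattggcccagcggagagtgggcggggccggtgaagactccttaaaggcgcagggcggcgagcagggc
Both strands were searched in the full windows of 250 bases before to 50 after each start. The E-box was in 5 of the 16 listed clock genes with a window (Bhlhe41, Ciart, Cry1, Per1 and Tef), and in 8.09% of all 27025 genes. The heat shock element was in 9 of 12 listed heat shock genes with a window and in 9.04% of all genes. A match is a string of letters, not a site shown to be bound.

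Few collagens of cartilage met the size rule. Col2a1, the gene of type II collagen (chromosome 15 from 97975602 to 98004695, GRCm38), was at 96074 CPM at postnatal day 3 and at 56194, 56318 and 69901 CPM on plates 1, 3 and 4. The lowest, median and highest newborn cell held 15170, 90908 and 195743 CPM, and the 2-month cells 0, 54935 and 257442 CPM, so the groups overlapped and the lowest cells were adult. The collagen IX and XI genes that coat and seed the type II fibril, Col9a1, Col9a2, Col9a3, Col11a1 and Col11a2, had log2 folds from -0.06 to 0.49 and met no call. Of the 8 cartilage collagens 1 was higher and 1 lower (median log2 fold 0.23). The lower gene was Col27a1, a fibrillar collagen of growing cartilage, at 290.0 CPM against 1391, 568 and 1165 CPM (log2 fold -1.84). The higher gene was Col10a1, the collagen of enlarged cartilage cells, which came from 2 newborn (4.76%) and 3 adult cells (2.83%). Without the cells that held Xist it was lower (log2 fold -3.73 in place of 5.53), and the median of the list was 0.17.

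The other matrix proteins of cartilage were more often lower than higher in the newborn cells. Of 23 genes, 10 were lower and 3 higher, with a median log2 fold of -1.12 (-0.93, -0.79 and -0.77 against plates 1, 3 and 4 alone). Chad encodes chondroadherin, a protein through which cartilage cells hold on to their matrix (chromosome 11 from 94565047 to 94569127). It was at 1491 CPM on the newborn plate and at 17692, 15621 and 8384 CPM on the adult plates, a log2 fold of -3.22. Single cells overlapped, with 0, 859.9 and 13301 CPM in the lowest, median and highest newborn cell and 0, 7432 and 75486 CPM in the adult cells. Prelp, a proteoglycan that ties collagen to basement membranes, was at 1517 against 4983, 3984 and 3542 CPM. Snorc, a membrane proteoglycan of cartilage, was at 58.6 against 865, 129.4 and 159.4 CPM, and Cilp, a protein of the middle layer of mature joint cartilage, at 20.7 against 238.8, 412 and 269.95 CPM.

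Pcolce2, Ctgf, Mia, Epyc, Scrg1 and Mgp were the other lower genes of this list, with log2 folds between -2.19 and -1.12. Mgp, an inhibitor of calcification, was not called without plate 4 (log2 fold -0.78) or without the cells that held Xist (-0.95). Mia, Epyc and Scrg1 were not called without plate 1 (-0.66, -0.83 and -0.87). Matn1, the matrilin of young and non-joint cartilage, went the other way at 993 CPM against 0, 125.3 and 261.4 CPM and was read in 13 newborn (31%) and 14 adult cells (13.2%). Acan, Hapln1, Matn3 and Comp, the core of the aggrecan network and its linkers, met no call (log2 folds -0.76, -0.05, -0.62 and -0.94). Leaving out the Xist-positive cells gave a list median of -0.96 with 3 higher and 10 lower.

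**Figure D1:**
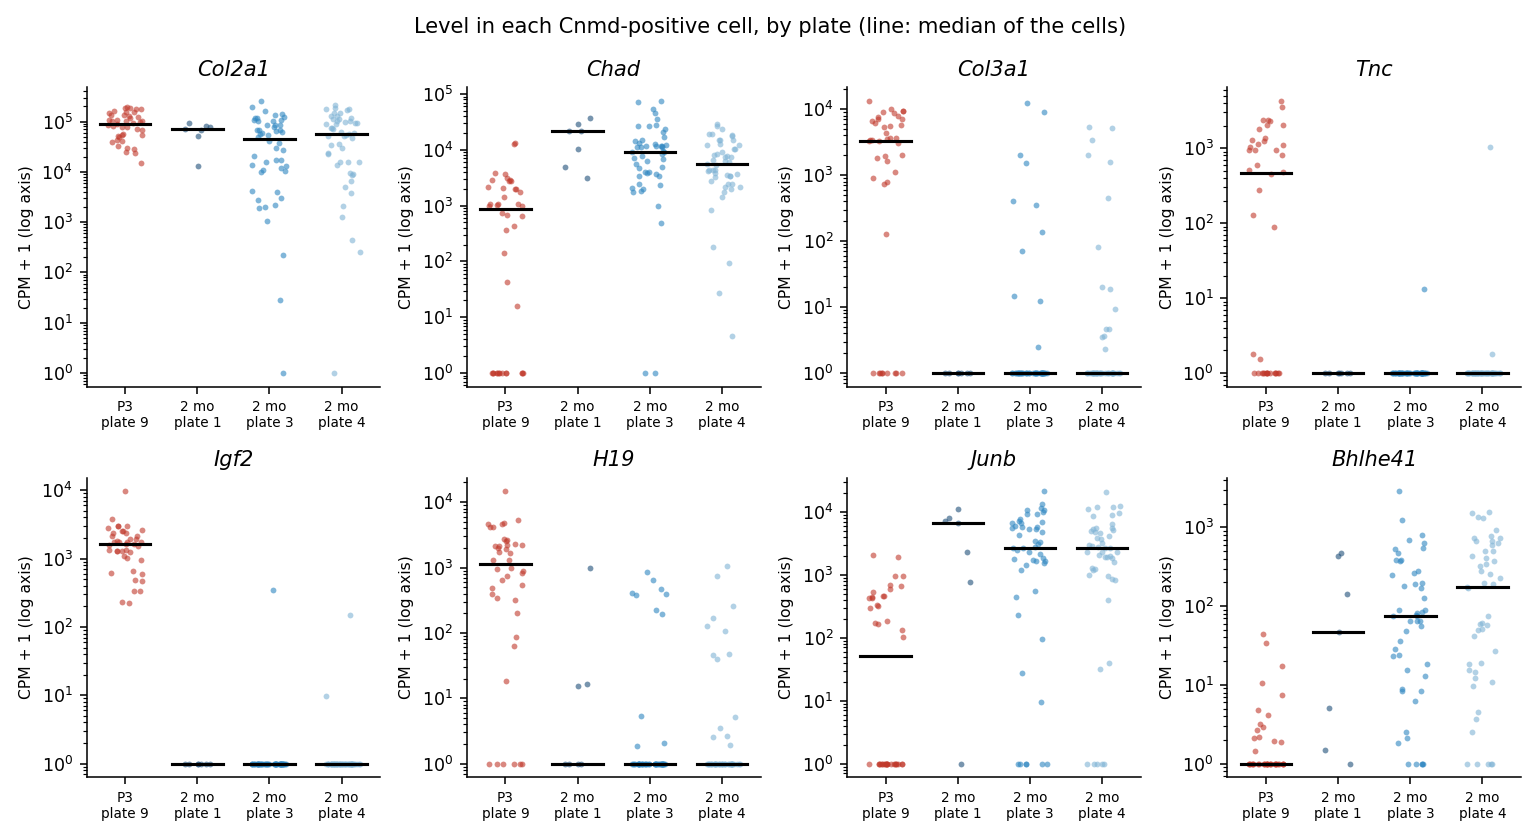
Level of 8 genes in each Cnmd-positive cell, as CPM + 1 on a log axis, for the plate of postnatal day 3 (P3) and the 3 plates of 2 months (2 mo), with 1 point per cell and a line at the median. Col2a1 overlaps at both ages, Igf2 is read in all 42 newborn cells and in 3 adult cells, and Junb and Bhlhe41 lie lower in most newborn cells.

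Cartilage transcription factors were called lower more often than genes at large. Of 20 tested, 5 were higher (25%, where 28.4% of all genes were) and 7 lower (35%, where 9.6% were). The median log2 fold was -0.85, but its sign depended on the plate (1.03, -0.36 and -0.85 against plates 1, 3 and 4). Sox9 was at 545 CPM at postnatal day 3 and 2017, 670.0 and 872 CPM at 2 months, a log2 fold of -1.12 that rested on plate 1. Without that plate it was -0.50 and met no call. Zbtb20, a repressor that promotes the last steps of cartilage cell growth, was at 295.6 CPM against 1076, 1335 and 1452 CPM. Runx2 and Runx3, which drive enlargement, were at 24.9 against 49.2, 170.9 and 167.4 CPM and at 98 against 2173, 180.3 and 248.3 CPM. Of the higher factors, Nfib was at 186.4 against 0.155, 118.7 and 28.1 CPM and in 31 newborn (73.8%) and 40 adult cells (37.7%). The oxygen sensor factor Hif1a was at 252.7 against 44, 137.3 and 81.6 CPM, though the call was lost when cells were thinned. Sox6 and Nfatc1 were not called without the Xist-positive cells (log2 folds 0.22 and 0.75), nor Nfatc1 without plate 1 (0.79).

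Many genes of enlarged cartilage cells and of bone were lower in the newborn cells. Of 10 tested hypertrophy genes, 5 were lower and 1 higher, and of 12 osteoblast and osteocyte genes 8 were lower and 1 higher (the median log2 fold was -2.60, and without the Xist-positive cells -4.39, or -4.08 over the same genes). The lists share Alpl, Ibsp, Spp1, Runx2 and Sp7, so their counts are not independent. Bglap and Bglap2, the osteocalcin genes, whose reads may be shared between near-identical copies, had no read in the 42 newborn cells, which allows a share of up to 7.14% of cells. At 2 months they were at 562, 48.8 and 16.1 CPM and 378, 40.6 and 24.4 CPM, in 23 and 24 adult cells. Alpl, the phosphatase of mineralising cells, was at 87.7 against 226.1, 607 and 577 CPM, in 2 newborn (4.76%) and 40 adult cells (37.7%), and was not called when cells were thinned. Panx3, a channel of enlarging cells, was at 58.9 against 755, 174.8 and 699 CPM, and Tnfrsf11b, which holds back osteoclasts, at 28.1 against 551, 593 and 137.2 CPM. Ibsp was at 513 against 0, 6557 and 3773 CPM and met no call, because plate 1 had no read. The 8 osteoblast markers summed to 641 CPM at postnatal day 3 and to 1386, 7290 and 4491 CPM on the adult plates. Ibsp made up most of each sum except on plate 1. By this sum adult members carried more bone transcripts, and the part of this in other differences was not tested.

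Joint and growth plate genes had calls both ways, with shares of lower calls above the background of 9.6%. Of 14 tested joint surface genes 3 were higher (21.4%, below the background of 28.4%) and 3 lower (21.4%). Of 36 growth plate signals 10 were higher (27.8%, near the background of 28.4%) and 7 lower (19.4%). Gdf5, a signal of forming joints, was at 313 CPM in 8 newborn cells and at 0, 0 and 14.4 CPM in 1 adult cell. Sfrp5, a Wnt inhibitor, was at 399 against 0, 107.04 and 98 CPM. The lubricin gene Prg4 was at 639 against 3.96, 3020.3 and 3880.1 CPM with no call. Among ligands and their inhibitors, Chrdl1, which blocks BMP signals, had no read at postnatal day 3 and stood at 336, 135.7 and 86.2 CPM at 2 months, in 30 cells. Hhip, a decoy for hedgehog, was at 81.9 against 566, 253.6 and 151.99 CPM. Of the receptors, Pth1r, which takes the PTHrP signal that delays enlargement, was at 145.9 CPM against 1231, 600.1 and 1102 CPM (log2 fold -2.74). Fgfr2 was higher at 413 against 1.01, 260.99 and 96.2 CPM, a call lost without the Xist-positive cells (log2 fold 0.82), while Fgfr1, Fgfr3, Ptch1 and Smo met no call. Of the targets, Id2 was lower (128.2 against 1144, 260.2 and 349.5 CPM), and Gli1, Id1 and Id3 were not called.

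Imprinted genes set the newborn cells apart: after thinning, 36 of 42 newborn cells held more of the 27 listed genes than every adult cell, a number no other list reached. Thinned newborn cells also held more genes of any kind, with a median of 1741 against 1364 to 1407 on the adult plates. The part this had in the count was not tested. Of 22 tested, 16 were higher (72.7%) and 1 lower, with a median log2 fold of 2.25 (3.93, 2.50 and 2.21 against plates 1, 3 and 4). Igf2, the fetal insulin-like growth factor (chromosome 7 from 142650766 to 142666816), was at 1759 CPM on the newborn plate and at 0, 9.39 and 3.36 CPM on the adult plates. It was read in 42 newborn (100%) and 3 adult cells (2.83%), and after thinning in 100% (91.6% to 100%) against 1.89% (0.229% to 6.65%). The lowest, median and highest newborn cells held 220.8, 1637 and 9613 CPM. H19, its untranslated neighbour (chromosome 7 from 142575529 to 142578143), was at 1607 against 62, 96.9 and 70.2 CPM and was read in 36 newborn (85.7%) and 28 adult cells (26.4%). Mest, a hydrolase-like protein that promotes fetal growth, was at 3094 against 0, 62.5 and 148.8 CPM. Dlk1, a membrane protein that holds back differentiation, was at 27.1 against 0, 0.0242 and 0.0813 CPM, low in amount but read in 37 newborn (88.1%) and 2 adult cells (1.89%).

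Peg3, a zinc finger factor read in every newborn cell, was at 2271 against 952, 456 and 413 CPM. Plagl1, a zinc finger factor, was at 463 against 7.52, 65.5 and 84.8 CPM. Gnas, which encodes the stimulatory G protein that carries the PTH receptor's signal, was at 2884 against 346, 628 and 576 CPM (log2 fold 2.48), although imprinting of Gnas concerns only some of its transcripts and gene totals do not part them. The growth brake Cdkn1c, also imprinted, was higher as well, at 1247 against 341, 488 and 425 CPM. Impact was the lower one (46.7 against 84.1, 134.3 and 161.5 CPM). Igf2, H19, Mest and Peg3 were all read in 30 of 42 newborn cells and in 0 adult cells after thinning, which allows a share of up to 2.83% of adult cells. Of the 27 listed genes, a newborn cell held 6 to 16 (median 12) and an adult cell 1 to 10 (median 5), also after thinning. In the Cnmd-negative cells of the same plates the list's median log2 fold was 2.41. Without the Xist-positive cells 17 of 22 were higher (median 1.92).

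**Figure D2:**
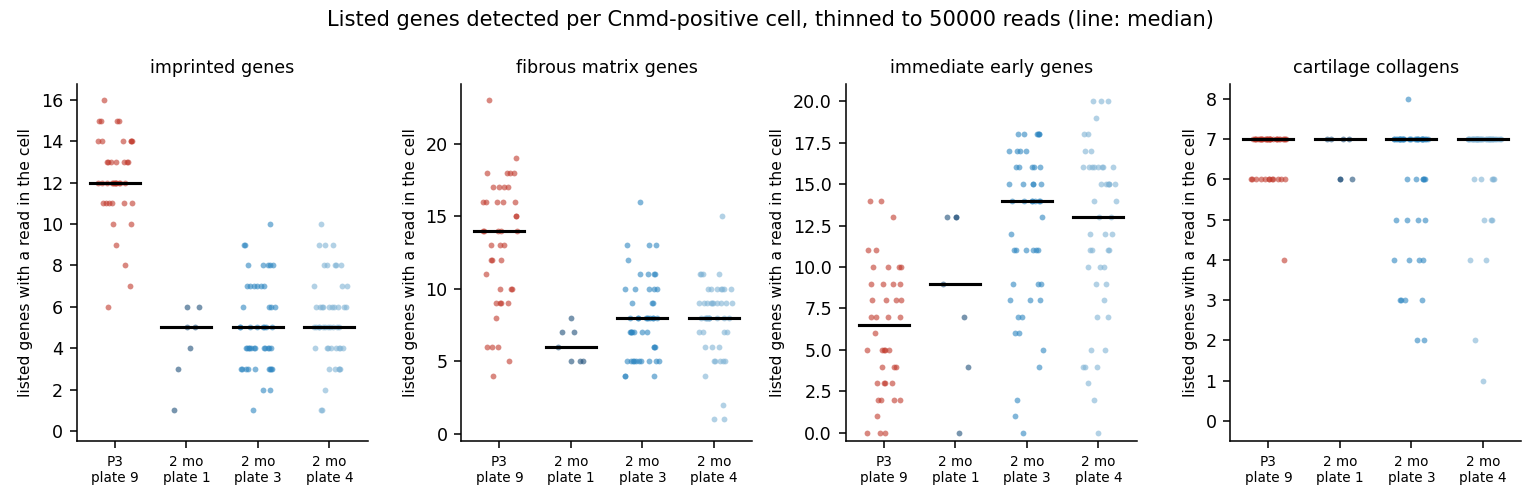
Number of listed genes with a read in each Cnmd-positive cell after thinning to 50000 reads, by plate (P3, postnatal day 3; 2 mo, 2 months), for 4 lists, with 1 point per cell and a line at the median. Newborn cells hold a median of 12 imprinted genes against 5 in adult cells and 6.5 immediate early genes against 13, while both ages hold a median of 7 of 8 cartilage collagens.

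Further growth genes followed the same direction in part. Of 17 tested genes of the fetal growth programme 10 were higher and 0 lower. Only 6 of the 17 were read in at least 20% of the cells of the higher age, and 5 of those were higher. The list's median log2 fold was 1.93 (4.04, 0.93 and 2.89 against plates 1, 3 and 4). Without the Xist-positive cells the median was 2.29 over the genes that then reached 5 CPM and 1.58 over the same genes as before. Gpc3, a glypican that restrains growth (chromosome X from 52272426 to 52613950), was at 263.5 against 0, 0 and 0.488 CPM, in 15 newborn (35.7%) and 1 adult cell (0.943%). Nrk, an X-linked kinase, was at 389 against 24.1, 57 and 7.97 CPM, and the factor Sox11 at 87 against 0, 14.7 and 7.24 CPM. In the insulin-like growth factor axis 8 of 18 were higher and 3 lower. The receptor Igf1r was at 332 against 60.2, 167.1 and 106.1 CPM, the growth hormone receptor Ghr at 135.4 against 0, 13.8 and 27.6 CPM and the kinase Akt1 at 415 against 0, 146.3 and 196.6 CPM. The ligand Igf1 was lower, at 8.05 against 23.2, 92.8 and 32.4 CPM.

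Cell cycle transcripts were rare at both ages. At least 4 of 24 listed genes were read, after thinning, in 3 of 42 newborn cells (7.14%, 1.498% to 19.5%) and in 6 adult cells (5.66%, 2.11% to 11.9%). Without the Xist-positive cells the list's median log2 fold was -1.30, or -0.90 over the same genes, in place of 0.14. The replication genes Mcm2, Mcm3 and Top2a were the 3 of 18 tested genes called higher. Without cells holding at least 4 cell cycle genes, Top2a had a log2 fold of -0.08. Of 13 tested genes that brake the cycle 3 were higher and 4 lower. Those lower were Btg2, Gadd45b, Gadd45g and Cdkn2d, with Gadd45g, a stress-induced inhibitor, at 28.6 against 830.4, 1767 and 2428 CPM.

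Most tested matrix genes of fibrous tissue were higher in the newborn cells. Of 27 tested, 18 were higher (66.7%) and 2 lower, with a median log2 fold of 2.41 (4.88, 2.36 and 2.39 against plates 1, 3 and 4). Col3a1, the collagen of pliable tissue (chromosome 1 from 45311538 to 45349706), was at 4186 CPM at postnatal day 3 and 0, 366 and 264.3 CPM at 2 months, in 33 newborn (78.6%) and 26 adult cells (24.5%). Col1a1, the main collagen of bone and tendon (chromosome 11 from 94936224 to 94953042), was at 12284 against 0, 734 and 204.2 CPM, and its partner Col1a2 at 11505 against 136.3, 2908 and 2396 CPM. Tnc, tenascin-C (chromosome 4 from 63959785 to 64047015), an adhesion-modulating protein of growing and healing tissue, was at 932 against 0, 0.0242 and 8.76 CPM and in 59.5% (43.3% to 74.4%) against 1.89% (0.229% to 6.65%) of thinned cells. Mfap2, a microfibril protein, was at 422 against 0, 12.3 and 11.2 CPM, and Bgn, the proteoglycan biglycan, at 7719 against 2259.7, 2846 and 2764 CPM. Postn, Col14a1 and Fbn2, which encode periostin, a fibril-associated collagen and the fetal fibrillin, were at 238.3, 169.6 and 169.3 CPM at postnatal day 3 and at no more than 0.108 CPM on any adult plate. The lower genes were Col6a3 (346 against 1426, 467 and 783 CPM) and Thbs1 (647 against 1899, 976 and 1103 CPM), and neither was called without plate 1 (log2 folds -0.85 and -0.68). Without the Xist-positive cells 16 of 25 were higher. The median was then 2.33 over the genes that still reached 5 CPM, and 1.57 over the same genes as the median of 2.41.

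Cnmd-negative cells of the same plate carried other fibrous genes that the members lacked. Mfap4, Aspn and Mfap5, at 1856, 844 and 725 CPM in the 26 newborn Cnmd-negative cells, had no read in the 42 newborn Cnmd-positive cells. The 8 fibroblast markers, which include Mfap5 and Col14a1, summed to 1454 CPM in newborn Cnmd-positive cells, within the range of 233.9 to 2646 CPM on the adult plates, and to 7160 CPM in newborn Cnmd-negative cells. Of these 8, 2 had no read in the newborn Cnmd-positive cells (Mfap5 and Ly6a). Of the 7 tested fibroblast markers, 3 were called higher in newborn Cnmd-positive cells (42.9%, where 28.4% of all genes were) and 0 lower. Their log2 folds were above 0 for 3 and below 0 for 4, with a median of -0.54. Tendon markers summed to 12973 CPM at postnatal day 3 and to 4463 to 12346 CPM at 2 months. Nearly all of this was Fmod, which is also a cartilage gene. Of 4 tested tendon markers 2 were called higher and 1 lower. Tnmd, the defining tendon marker, was at 1.72 CPM. Haematopoietic, endothelial and marrow stroma markers summed to 6.63, 1.07 and 92.9 CPM at postnatal day 3 and to at most 27.8, 6.58 and 69.2 CPM on any adult plate. Of 8 muscle and mural markers 3 met the call, each from 1 or 2 newborn cells, and their sum was 83.3 against at most 7.55 CPM.

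Col1a1 divided the newborn members evenly. Split at 1000 CPM, a limit chosen after the values were seen, 21 cells held 1107 CPM or more, and the other 21 held at most 3.63 CPM. The cells with Col1a1 held cartilage transcripts as well: their lowest, median and highest Col2a1 levels were 15170, 99971 and 195743 CPM, against 23781, 76531 and 179925 CPM in the rest. Median Cnmd was 5328 and 6734 CPM and median Sox9 409 and 305 CPM in the same order. At 2 months 7 cells reached 1000 CPM of Col1a1, and their median Col2a1 was 1997 CPM, against 59639 CPM in the other 99. Col1a1 and Col2a1 were read together after thinning in 22 of 42 newborn cells (52.4%) and 14 adult cells (13.2%).

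**Figure D3:**
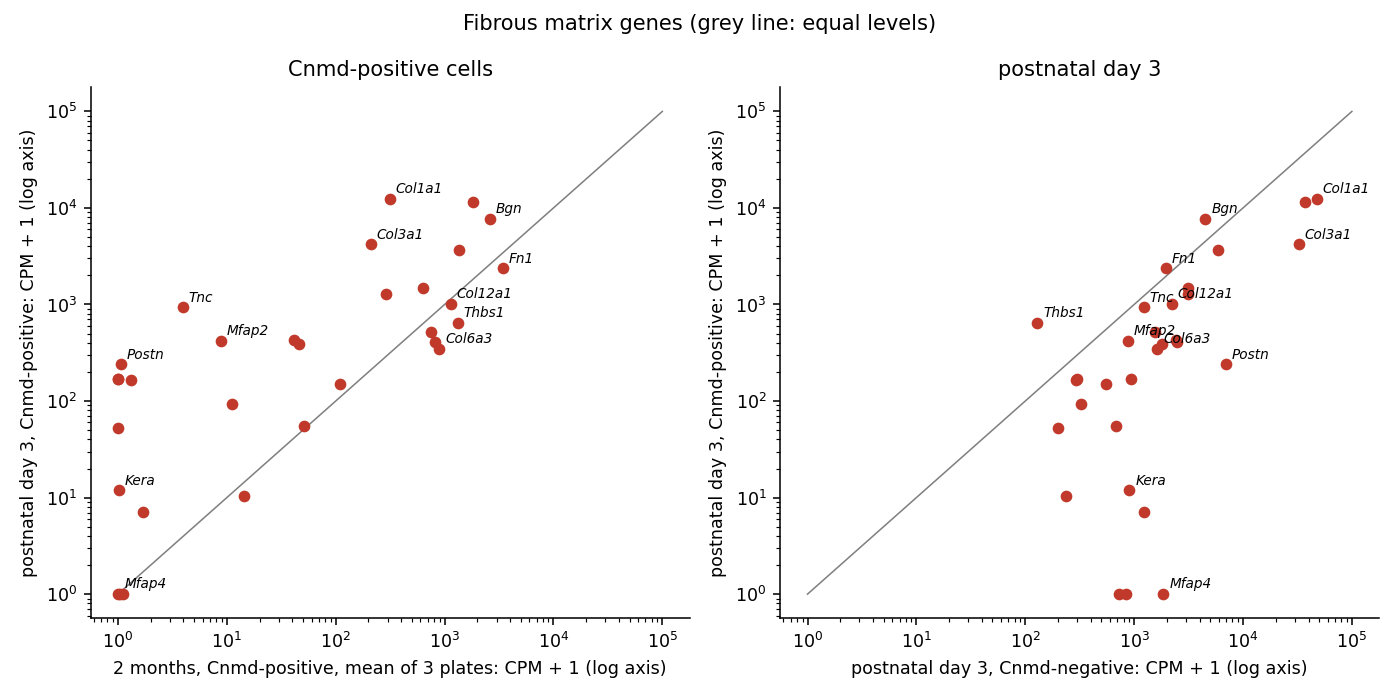
Levels of the 31 fibrous matrix genes in newborn Cnmd-positive cells (vertical axes) against 2-month Cnmd-positive cells (left) and against newborn Cnmd-negative cells (right), each as CPM + 1 on log axes, with 1 point per gene and a grey line at equal levels. Most genes lie above the line on the left and below it on the right, and Mfap4 sits at 0 in newborn Cnmd-positive cells but at 1856 CPM in Cnmd-negative ones.

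Of 29 tested enzymes that finish and cross-link collagen, 11 were higher (37.9%, where 28.4% of all genes were) and 1 was lower (median log2 fold 0.81, and 1.04, 0.69 and 0.91 against the single plates), and without the Xist-positive cells the median was 0.80. The prolyl hydroxylases P4ha1 and P4ha2 were at 510.4 against 16.4, 192.2 and 256.7 CPM and at 1142 against 58.1, 230.3 and 329 CPM. Loxl3, a lysyl oxidase that links collagen chains, was at 1562 against 554, 405 and 349.6 CPM. The lower gene was Tgm2, a transglutaminase, with no read at postnatal day 3 and 190.9, 111.4 and 129.6 CPM at 2 months. Serpinh1, the collagen chaperone, met no call (896 against 1612, 1577 and 1810.1 CPM). Of 23 tested genes that build the sugar chains of proteoglycans 7 were higher and 2 lower, near the background; Chsy1, a chondroitin synthase, was at 121.2 against 15.2, 56.5 and 59.3 CPM, and the sulphate donor enzyme Papss2 was lower at 303 against 704, 433 and 793 CPM, though not without plate 4 (log2 fold -0.90).

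Proteases and their inhibitors went both ways, with 7 of 19 higher and 5 lower. The gelatinase gene Mmp2 was at 1671 CPM against 100.7, 190.9 and 315 CPM (log2 fold 3.04), its activator Mmp14 at 596 against 0, 224.7 and 223.8 CPM and Mmp16 at 182.3 against 0, 0.775 and 15.6 CPM. The inhibitor gene Timp3 was lower (139.9 against 306, 349 and 342 CPM). The Serpina1 genes of the antitrypsin family had no read in any newborn member. Serpina1a, Serpina1b and Serpina1d were read in 16, 17 and 20 adult cells, with Serpina1d at 4272, 258.2 and 467 CPM. These are near-identical copies, so how reads were divided among them is uncertain.

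Glycolysis and oxygen response genes were higher in 10 of 22 cases (45.5%) and lower in 0, with a median log2 fold of 0.77 that was 0.33 without the Xist-positive cells (0.36 over the same genes). Pgk1, a glycolytic kinase, was at 753 against 369, 168.2 and 231.2 CPM, and Slc16a3, which exports lactate, at 241.9 against 0, 53 and 14.3 CPM. Gapdh was at 1231 against 377, 623 and 722 CPM and was not called without plate 1 (log2 fold 0.87) or without the Xist-positive cells (0.88). Fewer were called among nuclear genes of oxidative phosphorylation (5 of 34 higher, 1 lower) and cytosolic ribosomal protein genes (4 of 76 higher, 2 lower). Of 6 tested genes of class I antigen presentation, H2-K1 was lower (43.1 against 159.1, 247.5 and 409.7 CPM).

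**Figure D4:**
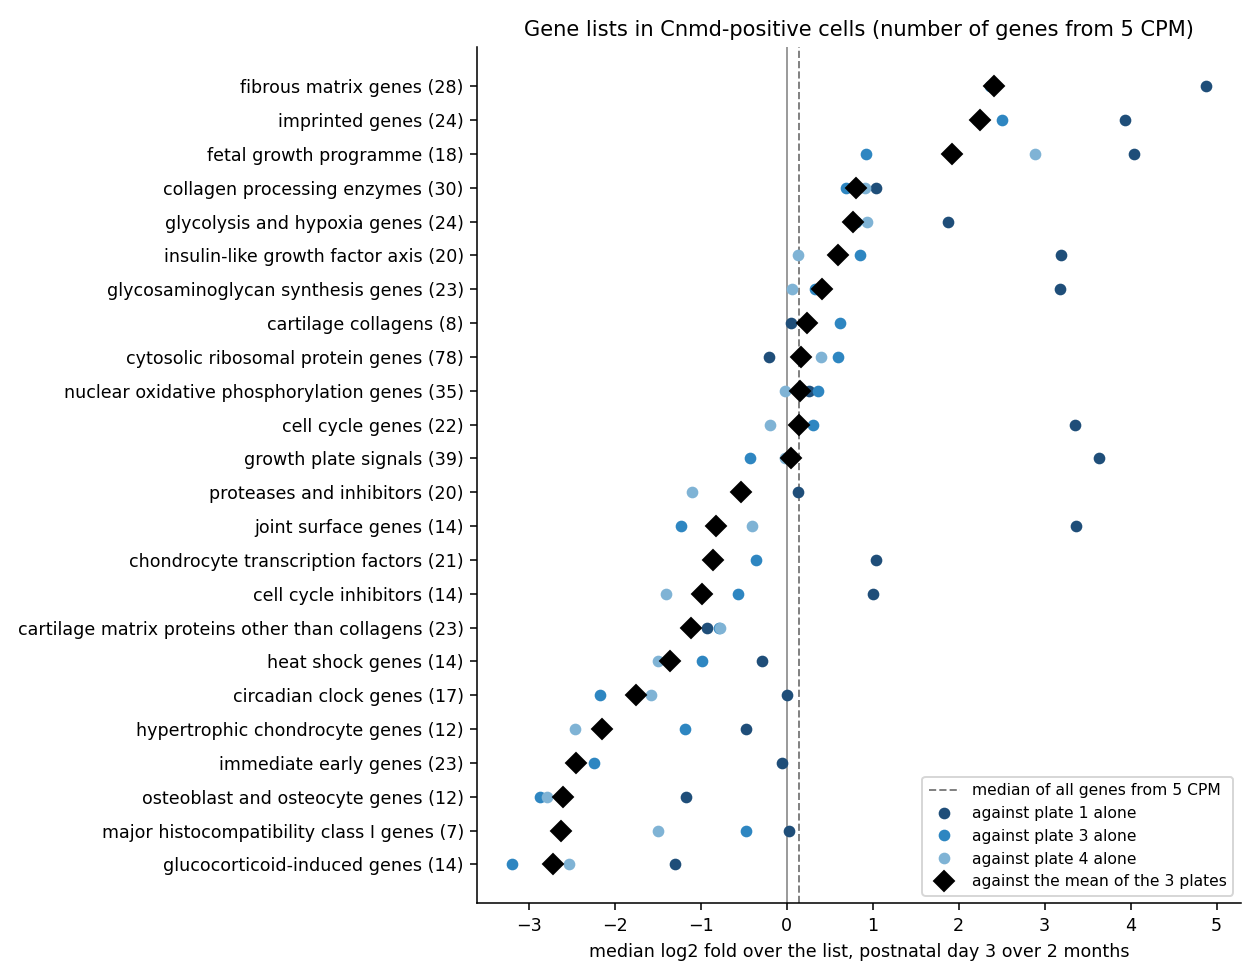
Median log2 fold of postnatal day 3 over 2 months for the 24 gene lists in Cnmd-positive cells, as black diamonds against the mean of 3 adult plates and as points against each adult plate alone, with the number of genes from 5 CPM after each name. The dashed line is the median of 0.15 over all genes, and plate 1, with 7 cells, lies apart from plates 3 and 4 for many lists.

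Many immediate early genes were lower in the newborn cells. Of 22 tested, 11 were lower and 0 higher, with a median log2 fold of -2.45 (-0.06, -2.24 and -2.46 against plates 1, 3 and 4), and without plate 1, where 20.8% of all genes were lower, 22 of 23 were. Jun and Junb, subunits of the AP-1 factor, were at 512 against 4986, 6087 and 6871 CPM and at 320.0 against 4513, 3854 and 4226 CPM. Junb was read in 21 newborn (50%) and 94 adult cells (88.7%), with 0, 50.9 and 2039.6 CPM in the lowest, median and highest newborn cell and 0, 2677 and 21049 CPM in the adult cells, so the groups overlapped. Fosb was at 73.4 against 1385, 261.01 and 409 CPM, while Fos met no call (2083 against 3004, 4389 and 4632 CPM). Dusp1, a phosphatase that shuts down MAP kinases, was at 192.8 CPM against 7892, 6135 and 5744 CPM. Zfp36, which speeds decay of inflammatory RNAs, was at 18.1 against 177.8, 330.1 and 437 CPM, and the stress factor Atf3 at 31 against 211.9, 599 and 681 CPM. Jun, Junb, Fos and Dusp1 were all read in 2 of 42 newborn cells and 66 adult cells (62.3%) after thinning. The list's median was -2.42 without the Xist-positive cells and -3.70 in the Cnmd-negative cells of the same plates.

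Some stress genes of other kinds were lower as well. Of 13 tested heat shock genes, 4 were lower and none higher (with a median log2 fold of -1.36), and without plate 1, where 20.8% of all genes were lower, 6 of 13 were. Hspa1a, the inducible HSP70 gene (chromosome 17 from 34969190 to 34972156), was at 45.3 against 2783, 1539.5 and 3172 CPM, in 3 newborn (7.14%) and 61 adult cells (57.5%). Its copy Hspa1b, whose promoter above carries the same motif, was below the minimum for a call at 0.105 against 5.35, 12.7 and 5.53 CPM and was read in 2 newborn (4.76%) and 40 adult cells (37.7%); reads of these copies may be shared. Dnajb1, a co-chaperone, was at 99.2 against 2843, 1487 and 1321 CPM. Bag3 was not called without plate 1 (log2 fold -0.80). Of 14 glucocorticoid-induced genes 7 were lower and 1 higher (median -2.71). The metallothionein Mt1 was at 5.3 against 998, 218.3 and 229.1 CPM, Tsc22d3 (GILZ) at 139.4 against 292.2, 467 and 736 CPM and Cebpd at 18.6 against 456, 699.7 and 377 CPM. Rasd1, a small G protein induced by dexamethasone, is outside this list. It was picked by its fold as 1 of the 12 lowest genes named below, so its direction was set by the choice. Rasd1 had no read in the newborn cells and was at 152.4, 912 and 1056 CPM in 46 adult cells.

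Clock genes were called in both directions. Of 17 tested, 5 were lower and 3 higher (median log2 fold -1.76, and -3.37 without the Xist-positive cells). Without plate 1, where 20.8% of all genes were lower, 10 of 17 were. Per1, a repressor whose promoter holds the E-box shown above, was at 0.377 against 256.7, 22.6 and 27.7 CPM, and after thinning was read in 2.38% (0.0603% to 12.6%) against 18.9% (11.9% to 27.6%) of cells. Bhlhe41 and Bhlhe40, repressors that compete for E-boxes, were at 2.89 against 244.2, 205.4 and 296.7 CPM and at 113.2 against 391, 948 and 1000.3 CPM. Bhlhe41 was read in 15 newborn (35.7%) and 95 adult cells (89.6%). Nr1d1, which represses the activator Arntl, was at 9.94 against 319, 229.4 and 222.8 CPM, and Per3 at 9.64 against 20.6, 85.3 and 97 CPM. The repressors Cry1 and Cry2 went the other way, at 61.2 against 0, 54.5 and 1.00 CPM and at 153.8 against 0, 63.5 and 24 CPM. Cry1 was read in 7 newborn and 6 adult cells, and its call was lost with Cnmd, Col9a1 and Matn3 all required, from 2000 genes per cell, and within 1500 to 3500 genes per cell. The Cry2 call was lost from 2000 genes per cell. The hour of collection is not given in the labels.

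Among called genes read in at least 20% of the cells of the higher age, the 12 with the highest and the 12 with the lowest folds were named by rule. The highest were Igf2, Cpxm2, Tnc, Gpc3, Postn, Col14a1, Fbn2, Emilin3, Prss35, Pcsk5, Adamtsl4 and Tsix. Cpxm2, a carboxypeptidase-like protein, was at 306 against 0, 0.0968 and 0 CPM, in 13 newborn (31%) and 1 adult cell (0.943%). Emilin3, an elastin-interface protein, was at 168.4 against 0, 0.0726 and 0 CPM, and Prss35, a serine protease-like protein, at 170.8 against 0, 0 and 1.68 CPM. Pcsk5, a proprotein convertase, was at 231.7 against 0, 0.0242 and 4.15 CPM, and Adamtsl4, a fibrillin-binding protein, at 194.5 against 0, 4.12 and 0.163 CPM. Tsix is transcribed across Xist in the opposite direction, and SmartSeq2 does not mark strand, so reads in the shared stretch cannot be told apart. Reads assigned to Tsix were in 11 of the 19 newborn cells with an Xist read and in 3 of the 23 without one, whose summed level was 96.6 CPM of Tsix.

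The 12 lowest were Rasd1, Spon1, Bglap, Chrdl1, Bglap2, Tgm2, Mt1, Pla2g5, Per1, Syt8, Bhlhe41 and Abcg1. Spon1, the matrix protein F-spondin, had no read at postnatal day 3 and was at 0.155, 319.9 and 326 CPM, and its call was lost when cells were thinned or limited to 1500 to 3500 genes. Pla2g5, a secreted phospholipase, had no newborn read and was at 140.8, 49.3 and 32.3 CPM in 46 adult cells. Abcg1, which exports cholesterol, had no newborn read either and was at 38.2, 86.1 and 47.1 CPM. Syt8, a synaptotagmin, was at 0.943 against 130.98, 45.7 and 212.5 CPM.

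**Figure D5:**
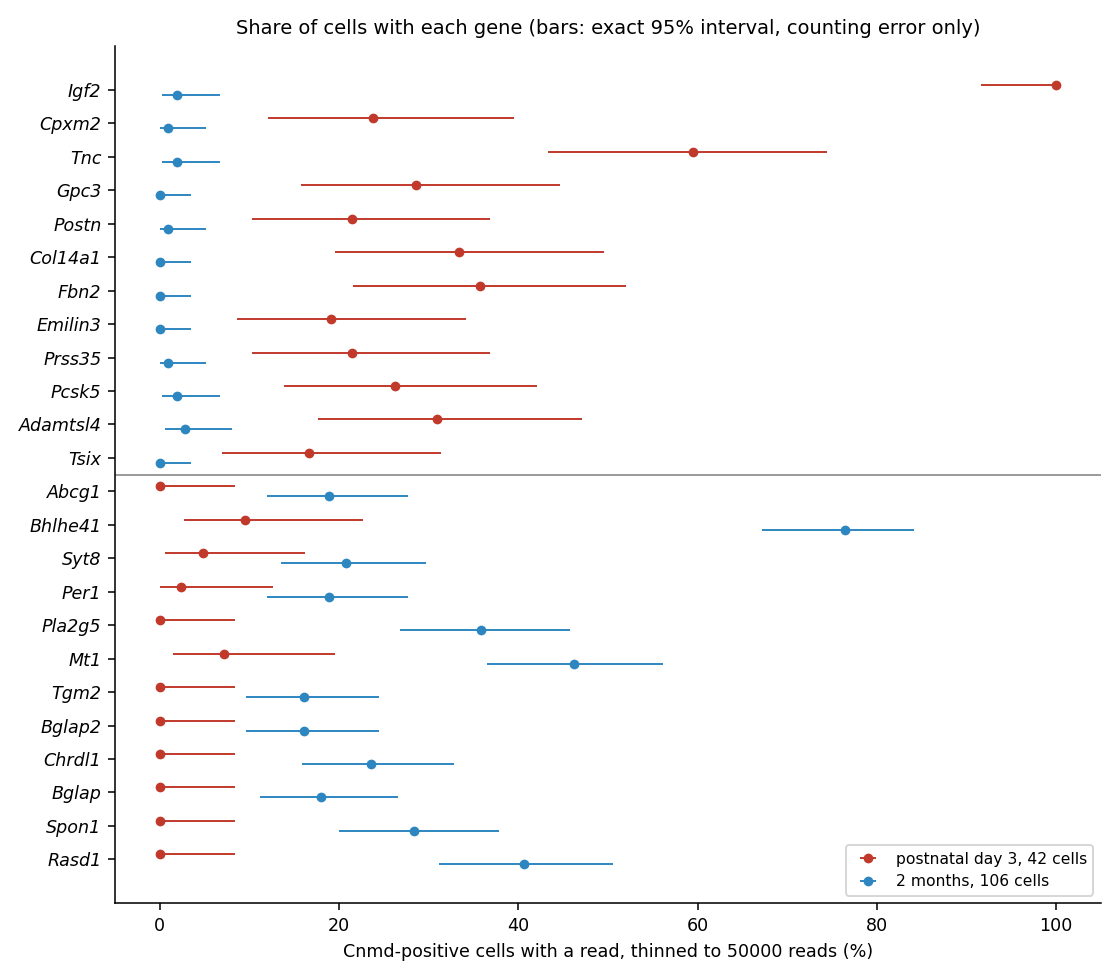
Share of Cnmd-positive cells with a read of each of the 24 named genes after thinning to 50000 reads, at postnatal day 3 (42 cells) and 2 months (7, 50 and 49 cells of 3 plates together), with exact 95% binomial intervals that cover counting error only. The 12 genes above the grey line were chosen as highest and the 12 below it as lowest, so the side is set by the choice. Igf2 is at 100% against 1.89% of cells.

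Cnmd-negative cells of the same plates, 26 at postnatal day 3 and 48 at 2 months, give the same lists side by side. The median log2 fold was 3.10 for fibrous matrix genes, 2.41 for imprinted genes, -3.70 for immediate early genes and -0.94 for clock genes. These have the sign found in Cnmd-positive cells. Glycolysis and oxygen response genes (-0.30, against 0.77 in Cnmd-positive cells) and growth plate signals (-1.12, against 0.06) do not. Cartilage collagens and other cartilage matrix genes were at -2.83 and -3.88, where Cnmd-positive cells had 0.23 and -1.12. No difference between these pairs of values was tested, and the chondrocyte markers of the Cnmd-negative cells also differed between ages, at 1934 and 18744 CPM.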

How the data were processed

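Single cells were sequenced with SmartSeq2, and the authors deposited expected counts per gene and well, made with bcl2fastq 2.18, STAR 2.4 and RSEM 1.2.21 on GRCm38.p6, per the submitters' processing notes. Groups follow the labels' age and plate, and 289 of 671 columns were not used. Of the values above 0, 14.3% were not whole. The 92 rows of spiked-in ERCC RNA were kept out of totals. The 28 rows named by a number only were not removed and count in the totals. Cells were filtered as given above, and reads were summed per plate and scaled to CPM with 1 CPM added before folds. Shares described as thinned were taken after each cell was thinned once to 50000 reads (seed 20). All other shares and counts of cells with a read used every read and were not evened for depth. Exact binomial 95% intervals of shares were made with scipy 1.17.1. Intervals and floors (3 of the number of cells for a count of 0) cover error in counting cells only. They hold no spread between animals, since each age is 1 sample. Reads carry no molecular identifiers. No doublet caller was run.

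With 1 sample per age no test was made, and no p-value is given. Named genes are the listed genes, plus 12 each way by fold that have at least 20 CPM at the higher age, reads in at least 20% of its cells and a 1.5-fold gap to the nearest adult plate. Unnamed models, pseudogenes, mitochondrial genes, Xist and Y-linked genes were left out of the 24. Members and lists were chosen with earlier results of these data known. Alternatives included TMM factors (edgeR 4.0.16), other minimums and cell filters, and leaving out each adult plate. The size rule alone was run on simulated cells. These were drawn with no difference between adult plates, unlike the plates here, so that run gives no error rate for the calls above. Thinning and plate sums were checked on part of the data. Gene coordinates are those of the GENCODE annotation of GRCm38, in which 97.3% of gene symbols were found. Tools were Python 3.11.15 with numpy 2.4.6, pandas 2.3.3 and matplotlib 3.10.9, and R 4.3.3.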

Additional observations from a re-analysis of the deposited data

Results flagged for a closer look

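The calls of 9 listed genes went one way in Cnmd-positive cells and the opposite way in Cnmd-negative cells of the same plates. Higher in newborn Cnmd-positive cells and lower in newborn Cnmd-negative cells were Adamtsl2 (log2 fold 4.17, against -4.30 in Cnmd-negative cells), Chsy1 (1.45 against -1.69), Nfib (1.91 against -1.44) and Pfkp (1.92 against -7.82). Lower in newborn Cnmd-positive cells and higher in newborn Cnmd-negative cells were Alpl (-2.41 against 1.57), Cdkn2d (-1.37 against 1.78), Col6a3 (-1.36 against 2.91), Igf1 (-2.48 against 4.91) and Thbs4 (-4.83 against 1.76). The difference between the cell classes was not tested. The Adamtsl2 value in Cnmd-positive cells was -2.30 without the newborn cells that held Xist and -0.037 with Cnmd, Col9a1 and Matn3 all required. Calls in Cnmd-positive cells were also lost for Alpl when cells were thinned or averaged, for Col6a3 without plate 1 or within 1500 to 3500 genes per cell, and for Igf1 from 50 CPM, from 2000 genes per cell or within 1500 to 3500 genes per cell.

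Xist, a gene outside the comparison, was read in 45.2% of newborn Cnmd-positive cells, all labelled male, and in none of the adult ones. Among the 26 newborn Cnmd-negative cells it was read in 3 (11.5%, 2.45% to 30.2%).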

How the results depend on the processing

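No paired analysis was possible because the labels give no replicate numbers shared by the ages. The counts of 2642 higher and 893 lower genes became 1199 and 578 from 50 CPM, and 864 and 408 for genes read in 20% of cells, where fewer genes were tested. From 2000 genes and 200000 reads per cell, which left no cell on plate 1, 1672 genes were lower. Leaving out 1 adult plate gave 2390 to 3498 higher and 1123 to 1991 lower genes, and the median over all genes moved from 0.15 to between -0.04 and 0.42. The median log2 fold of cartilage matrix proteins other than collagens was -0.94 both with each cell's CPM averaged (-0.943) and with thinned cells (-0.938), -0.98 to -0.83 without 1 plate, and -0.96 without the newborn cells that held Xist. That last setting, added after the data were seen, gave -3.37 for clock genes and -4.39 for osteoblast genes. Fibrous matrix genes had 2.33 there, but 1.57 over the genes of the first median (2.41), since genes that fell under 5 CPM dropped out. Collagen processing enzymes ranged from 0.66 to 1.07 without 1 plate.

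Of the called list and named genes 52.3% kept their call under all 17 alternatives run on single genes. Signs reversed with Cnmd, Col9a1 and Matn3 all required for Adamtsl2 (-0.037), Angptl4 (-0.075), Ccng1 (-1.40), Chst3 (-3.91), Kera (-0.055), Magel2 (-1.16) and Tgfb3 (-0.19). Without the newborn cells that held Xist they reversed for Adamtsl2 (-2.30), Angptl4 (-1.51), Ccng1 (-0.65), Col10a1 (-3.73), Igf2bp2 (-2.33), Kera (-0.039) and Tnfsf11 (-1.52). From 2000 genes per cell they reversed for Foxo3 (-1.28), Kera (-0.10) and Thbs1 (0.37), and without cycling cells for Top2a (-0.0804). The cause was not tested. Plate 1 has 7 cells, which limits every adult mean it enters.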
